A study of Mus musculus with 4 samples.

Results

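A set of 9 genes is described here that mark or drive specialised regulatory T cells, and all 9 were found by exact match to the gene name among the 20837 genes of the deposited count table. Regulatory T cells (Treg cells) are the CD4 T cells, defined by Foxp3, that restrain other immune cells. Il1rl1, Areg and Klrg1 encode a receptor, a growth factor and a surface receptor found on Treg cells of tissue type. Gata3 and Pparg encode lineage factors of such cells. Batf, Irf4, Prdm1 and Maf encode transcription factors of effector Treg cells. RNA was sequenced from Treg cells of mouse spleen in 4 libraries. The groups compared were 2 libraries with the genotype Foxp3YFP-CreKmt2dfl/fl (cKO) and 2 libraries with Foxp3YFP-CreKmt2d+/+ (WT). All 4 carry the Foxp3YFP-Cre allele, in which a fusion of a yellow fluorescent protein and Cre recombinase is expressed from the Foxp3 gene, so that the loxP-flanked Kmt2d gene is deleted in cells that express Foxp3. Kmt2d encodes a methyltransferase of histone H3 lysine 4. The sources used here do not give age, sex, background strain or treatment for these mice. Whether each library is a mouse of its own is not stated, so p-values reflect only how far the libraries of a group lie apart, which may be technical spread.

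Interleukin 33 is an alarmin released by damaged cells. It binds ST2, the product of Il1rl1, together with the shared accessory chain encoded by Il1rap, and signals through MYD88 and IRAK kinases. ST2-positive Treg cells of muscle, lung and adipose tissue are known for secreting amphiregulin, the product of Areg, which acts on the epidermal growth factor receptor of neighbouring cells in tissue repair. BATF and IRF4 bind DNA jointly and drive the differentiation of these cells, GATA3 maintains ST2 expression, and PPARG marks the Treg cells of adipose tissue. In the spleen such cells are a minority that is thought to hold precursors of tissue Treg cells.

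Total counts were 28442416 and 34225385 in the cKO libraries and 35560491 and 30737750 in the WT libraries. Levels are given as CPM (counts scaled to library size with TMM factors), where 1 read is worth 0.0288 to 0.0344 CPM, and compared by the edgeR quasi-likelihood test over 13861 genes. All 4 libraries held Foxp3 transcripts, at 170 and 180 CPM in cKO and 278 and 250 CPM in WT (log2 fold change -0.59, edgeR adjusted p = 0.00493). Counts over the whole Kmt2d gene, which include exons outside any deleted part and so do not check the deletion, were 836 and 793 CPM in cKO and 721 and 704 CPM in WT (log2 fold change 0.19, edgeR adjusted p = 0.0375). One protocol field of the labels speaks of macrophages grown from marrow, against the tissue, cell type and genotype fields, which the groups follow. Of 12 macrophage and monocyte markers 2 rose and 1 fell, with a median log2 fold change of -0.36. Their summed level was 926 to 1103 CPM in cKO and 649 to 890 CPM in WT. Much of that sum came from Lyz2, with 584 and 544 CPM in cKO and 260.5 and 286.2 CPM in WT. The 12 pan T cell transcripts summed to 5088 to 5528 CPM in cKO and 6443 to 6781 CPM in WT. All 10 neutrophil markers rose, with sums of 594 to 1316 CPM in cKO and 57.7 to 180 CPM in WT. In bulk samples, fewer cells of a type and less RNA per cell cannot be told apart.

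All 9 genes passed the filter on low counts, and 7 of the 9 passed the test, 5 of them lower and 2 higher in cKO. Among all tested genes 31.6% passed, 15.1% lower and 16.5% higher. The median log2 fold change was -0.26 over the 9 genes and 0.0003 over all tested genes. Il1rl1 and Areg fell by more than 2-fold in cKO, a size that 8.11% of all tested genes reached with a call in either direction. Prdm1 and Klrg1 rose. Irf4, Batf and Gata3 fell by smaller amounts when libraries were scaled by all genes. Pparg and Maf did not pass. The cKO and WT libraries did not overlap for the 7 genes that passed, as was the case for 66.0% of all tested genes.

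**Figure D1:**
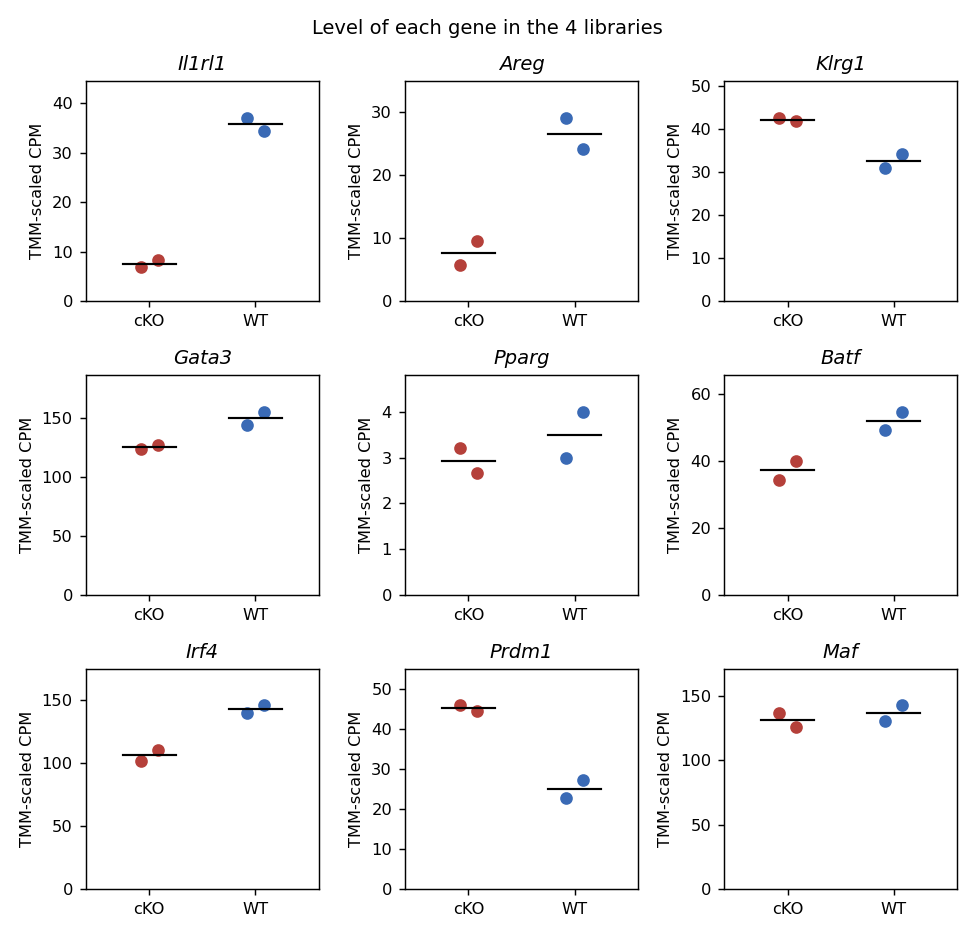
Level of each of the 9 genes in TMM-scaled CPM (vertical axes from 0), with 1 point per library, cKO in red on the left and WT in blue on the right, and a black line at the mean of 2 libraries. Il1rl1 lies at 6.84 and 8.31 CPM in cKO and at 37.1 and 34.5 CPM in WT, and the points of the groups overlap only for Pparg and Maf.

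Il1rl1 (gene number 17082, mm10 chromosome 1, 40404864 to 40465418, plus strand) encodes ST2, the receptor of interleukin 33. It had 199 and 287 counts in the cKO libraries and 1287 and 1051 counts in the WT libraries. These correspond to 6.84 and 8.31 CPM in cKO and 37.1 and 34.5 CPM in WT. Both cKO libraries lay far below both WT libraries, and the gap was much wider than the distance between libraries of a group. The level was 4.71-fold lower in cKO, a log2 fold change of -2.23 (SE 0.11, 95% interval -2.51 to -1.96, edgeR adjusted p = 0.00205), and the absolute change was larger than that of 98.2% of tested genes. The call held in all 14 alternatives run, with log2 fold changes from -2.39 to -1.65. ST2 exists as a membrane receptor and as a soluble decoy made from the same gene, and counts per gene do not separate the 2 forms.

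The RefSeq promoter table holds 2 transcription starts of Il1rl1, with windows of 250 bases before to 50 after the start, on GRCm38.p6, the assembly of mm10. Both lie inside the annotated gene, and the outermost annotated start has no window in that table. The first is chr1:40429320-40429619 and the second chr1:40439379-40439678, both on the plus strand, and they are shown because this gene changed most. Capitals mark the letters AGATAA or, on the other strand, TTATCT, a core of the sites bound by GATA factors.
Il1rl1 first start: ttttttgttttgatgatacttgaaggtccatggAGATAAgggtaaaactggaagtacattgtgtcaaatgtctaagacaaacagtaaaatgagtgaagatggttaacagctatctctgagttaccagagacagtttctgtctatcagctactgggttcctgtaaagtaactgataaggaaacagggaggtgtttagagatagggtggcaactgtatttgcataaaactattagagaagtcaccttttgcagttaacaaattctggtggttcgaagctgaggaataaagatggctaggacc
Il1rl1 second start: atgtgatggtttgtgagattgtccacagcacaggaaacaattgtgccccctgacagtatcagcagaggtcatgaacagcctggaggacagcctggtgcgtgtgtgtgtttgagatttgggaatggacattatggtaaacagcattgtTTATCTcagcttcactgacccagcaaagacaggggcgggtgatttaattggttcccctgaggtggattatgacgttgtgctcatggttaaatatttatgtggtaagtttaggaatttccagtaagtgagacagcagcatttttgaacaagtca
Each window held 1 match to these letters, whose first base was at -217 from the first start and at -103 from the second. Other forms of the GATA core, such as TGATAA, which the first window also holds, were not searched or marked. The letters occur on either strand in 11.2% of 32851 RefSeq windows of the same length and in 3 of the 10 windows that RefSeq gives for 7 of the 9 genes, the other being that of Batf. A match describes the sequence and shows no binding. The GC content was 38.7% in the first and 44.7% in the second window.

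Areg (gene number 11839, chromosome 5, 91139599 to 91148432, plus strand) encodes amphiregulin, a ligand of the epidermal growth factor receptor. It had 167 and 332 counts in cKO and 1010 and 734 counts in WT, or 5.74 and 9.62 CPM in cKO and 29.1 and 24.1 CPM in WT. Both cKO libraries were low, but they differed from each other by more than those of Il1rl1 did. Areg was 3.44-fold lower in cKO, with a log2 fold change of -1.78 (SE 0.23, 95% interval -2.36 to -1.21, edgeR adjusted p = 0.00561). The call held in all 14 alternatives, and the size depended on the cKO library used, with log2 fold changes of -1.47 without cKO 1 and -2.21 without cKO 2. Scaled to Foxp3 counts the change was -1.20. Within a library, Areg reached 83.9 and 116 counts per 100 counts of Il1rl1 in cKO and 78.5 and 69.8 in WT. Relative to Il1rl1, Areg was therefore not lower in cKO.

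The window around the RefSeq start of Areg, chr5:91139349-91139648 on the plus strand of GRCm38.p6, is shown as that of the second most changed of the 9 genes. Capitals mark the letters TGACGTCA, the palindromic cyclic AMP response element.
Areg: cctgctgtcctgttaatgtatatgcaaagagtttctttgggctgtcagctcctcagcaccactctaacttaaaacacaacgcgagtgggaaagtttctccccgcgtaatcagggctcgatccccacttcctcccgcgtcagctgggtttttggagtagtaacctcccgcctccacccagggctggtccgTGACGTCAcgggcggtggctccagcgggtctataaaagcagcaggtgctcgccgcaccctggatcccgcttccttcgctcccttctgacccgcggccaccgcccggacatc
The first base of the match was at -61 from the start. These letters occur in 1.79% of the 32851 windows and in 1 of the 10.

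Il1rl1 and Areg are also transcribed by basophils, mast cells and group 2 innate lymphoid cells. Among 10 tested markers of basophils and mast cells 8 rose and 0 fell. The whole list of 12 summed to 51.9 and 70.1 CPM in cKO and 17.4 and 22.1 CPM in WT. The basophil protease gene Mcpt8 had 4.74 and 7.33 CPM in cKO and 0.173 and 0.755 CPM in WT, and the mast cell tryptase gene Tpsb2 had 0 and 3 counts in cKO and 0 and 1 count in WT. These markers were thus higher in the libraries in which Il1rl1 and Areg were lower. Of 8 markers of group 2 innate lymphoid cells only 3 passed the filter, with Kit higher, Il9r lower and Il17rb not passing. Their summed level was 39.0 to 40.1 CPM in cKO and 37.6 to 40.6 CPM in WT. The cytokine gene Il13 of these cells had 3 and 1 counts in cKO and 1 and 1 counts in WT, and Il5 had 2 and 1 counts in cKO and 0 in both WT libraries. The part of these cells in the levels of Il1rl1 and Areg was not tested.

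Klrg1 (gene number 50928, chromosome 6, 122270596 to 122282833, minus strand) encodes an inhibitory lectin-like receptor carried by terminally differentiated Treg, CD8 T and NK cells. It moved opposite to the other surface and secreted molecules of the group. Klrg1 had 42.6 and 41.8 CPM in cKO and 31.0 and 34.1 CPM in WT, with both cKO libraries above both WT libraries. The log2 fold change was 0.38 (SE 0.07, 95% interval 0.21 to 0.54, edgeR adjusted p = 0.0115). The call ended without cKO 1 (edgeR adjusted p = 0.0526) and without WT 1 (edgeR adjusted p = 0.0589), and the direction was positive in all 14 alternatives. Of 12 markers of NK and CD8 T cells, 11 rose and Klrb1c did not pass. They summed to 321 and 336 CPM in cKO and 184 and 219 CPM in WT, and none of the 12 was at 0 in any library. Their part in the rise of Klrg1 was not tested.

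**Figure D2:**
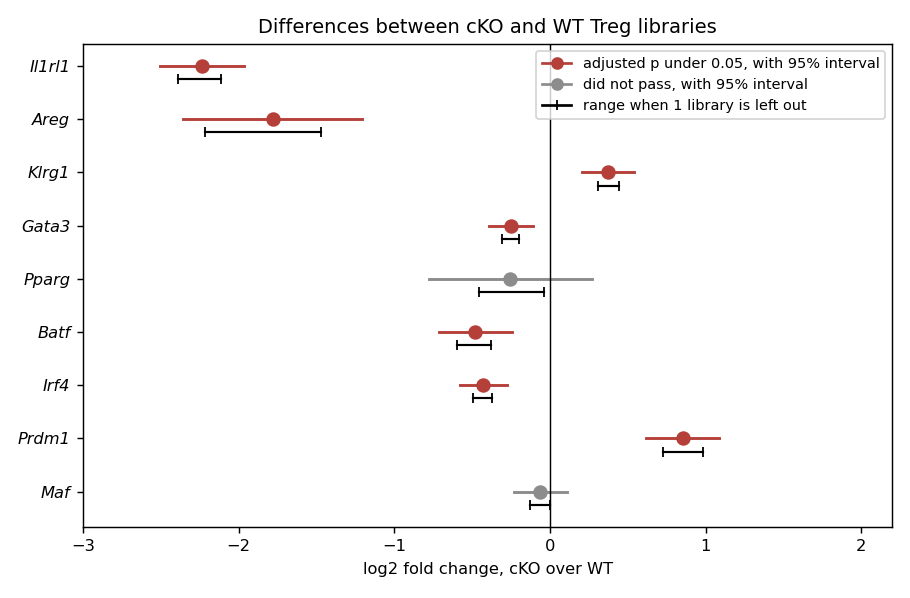
Log2 fold change of each gene in cKO over WT (horizontal axis), with circles for the estimate, coloured bars for the 95% interval and black bars below for the range when 1 of the 4 libraries is left out. Il1rl1 (-2.23) and Areg (-1.78) stand apart on the left, Prdm1 (0.85) on the right, and the intervals of Pparg and Maf include 0.

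Gata3 (gene number 14462, chromosome 2, 9857078 to 9887953, minus strand) encodes the zinc finger factor of type 2 lymphocytes that also binds the Il1rl1 gene. It had 124 and 127 CPM in cKO and 144 and 155 CPM in WT. The cKO libraries were lower, by a margin of the order of the distance between the WT libraries. The log2 fold change was -0.25 (SE 0.06, edgeR adjusted p = 0.0223) when scaled by all genes, turned to 0.06 (adjusted p = 0.577) when scaled to pan T cell transcripts and to 0.33 (adjusted p = 0.0182) when scaled to Foxp3. The call also ended without cKO 1 (edgeR adjusted p = 0.108), cKO 2 (0.0648) or WT 2 (0.0920). Il1rl1 reached 5.53 and 6.54 counts per 100 counts of Gata3 in cKO and 25.8 and 22.2 in WT, a ratio within each library that no scaling alters. The annotated Gata3 gene overlaps Gata3os and Gata3un, which lay between 0.0328 and 1.39 CPM in each library. GENCODE lists 3 genes that overlap it under names that are not in the table. Whether these include Gata3os or Gata3un under other names was not checked. Reads of overlapping genes cannot be told apart where the use of strand is not known.

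Pparg (gene number 19016, chromosome 6, 115360879 to 115490404, plus strand) encodes a lipid-activated nuclear receptor. It had 93 and 92 counts in cKO and 104 and 122 counts in WT. This is 3.20 and 2.66 CPM in cKO and 3.00 and 4.00 CPM in WT, and the groups overlapped. Its log2 fold change was -0.26 (SE 0.21, edgeR adjusted p = 0.434) with a 95% interval from -0.78 to 0.27. Pparg passed in none of the 13 alternatives that tested it.

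Irf4 (gene number 16364, chromosome 13, 30749233 to 30766981, plus strand) encodes a factor induced by T cell receptor signalling that drives effector Treg differentiation. It had 102 and 111 CPM in cKO and 140 and 146 CPM in WT, with no overlap. The log2 fold change of -0.43 (SE 0.06, edgeR adjusted p = 0.00643) shrank to -0.12 (adjusted p = 0.273) when scaled to pan T cell transcripts and turned to 0.16 (adjusted p = 0.192) when scaled to Foxp3. The call held without any 1 library.

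Batf (gene number 53314, chromosome 12, 85686720 to 85709087, plus strand) encodes the AP-1 family partner of IRF4. It had 34.2 and 40.1 CPM in cKO and 49.1 and 54.6 CPM in WT, with both cKO libraries below both WT libraries. The log2 fold change was -0.48 (SE 0.09, edgeR adjusted p = 0.0149), -0.17 (adjusted p = 0.210) when scaled to pan T cell transcripts and 0.10 (adjusted p = 0.473) when scaled to Foxp3. The call ended without WT 2 (edgeR adjusted p = 0.0627). Per 100 counts of Foxp3, Batf reached 20.2 and 22.2 in cKO and 17.7 and 21.8 in WT, so that Batf, like Irf4, was not lower relative to Foxp3.

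Prdm1 (gene number 12142, chromosome 10, 44437174 to 44528558, minus strand) encodes BLIMP1, a repressor that acts in effector Treg cells downstream of IRF4 and also directs plasma cell differentiation. It had 1336 and 1541 counts in cKO and 793 and 834 counts in WT, or 45.9 and 44.6 CPM in cKO and 22.8 and 27.4 CPM in WT. Both cKO libraries were high and close to each other. Prdm1 was 1.80-fold higher in cKO, with a log2 fold change of 0.85 (SE 0.09, 95% interval 0.62 to 1.08, edgeR adjusted p = 0.00471). The call held in all 14 alternatives, with log2 fold changes from 0.73 to 1.44. Prdm1 rose and Irf4 fell when libraries were scaled by all genes. Within a library, Prdm1 reached 45.2 and 40.4 counts per 100 counts of Irf4 in cKO and 16.3 and 18.8 in WT.

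Some markers of plasma cells, in which Prdm1 is also high, rose with it. Of 6 such markers Jchain, Mzb1, Tnfrsf17 and Derl3 rose, while Xbp1 and Sdc1 did not pass. The 6 summed to 668 and 675 CPM in cKO and 440 and 526 CPM in WT, and none was at 0 in any library. Most of that sum came from Jchain, with 525 and 537 CPM in cKO and 322 and 385 CPM in WT. The surface proteoglycan gene Sdc1 (CD138), a defining marker of plasma cells, had 6.22 and 5.47 CPM in cKO and 4.61 and 6.79 CPM in WT. Of 12 proliferation markers 11 rose and 0 fell, with sums of 1349 to 1444 CPM in cKO and 827 to 935 CPM in WT. The part of proliferation or of plasma cell, NK or CD8 T cell transcripts in the rise of Prdm1 was not tested.

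The window at a RefSeq start of Prdm1 that lies inside the annotated gene, chr10:44458699-44458998, minus strand of GRCm38.p6, is the 1 window the table holds for this gene and is shown because Prdm1 had the largest rise of the 9. Capitals mark TGAATCA, a match to the letters TGANTCA, where N is any base, with its first base at -48 from the start. These letters are looser than the usual AP-1 site, which has C or G in the middle where this match has A.
Prdm1: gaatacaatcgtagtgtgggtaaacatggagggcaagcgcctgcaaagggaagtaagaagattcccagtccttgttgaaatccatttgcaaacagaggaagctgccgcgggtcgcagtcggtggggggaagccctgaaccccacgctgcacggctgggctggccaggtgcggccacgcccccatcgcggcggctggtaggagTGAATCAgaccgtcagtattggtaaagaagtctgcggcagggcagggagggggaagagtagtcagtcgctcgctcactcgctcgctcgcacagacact
The letters TGANTCA, with any middle base, occur in 7.81% of the 32851 windows and in 1 of the 10. A paired IRF element, GAAA and GAAA with 2 bases between them, was in 3.44% of all windows and in 0 of the 10.

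Maf (gene number 17132, chromosome 8, 115703253 to 115706894 in RefSeq, minus strand) encodes a bZIP factor of Il10-producing and intestinal Treg cells. It had 136 and 125 CPM in cKO and 131 and 143 CPM in WT, and the groups overlapped. The log2 fold change was -0.06 (SE 0.07, 95% interval -0.23 to 0.11, edgeR adjusted p = 0.585). Scaled to Foxp3 it was 0.53 (adjusted p = 0.00290), the only alternative in which Maf passed. The median over all tested genes was 0.59 under that scaling.

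Of the 12 pan T cell transcripts 8 were lower in cKO, as was Foxp3, so the 9 genes were also compared relative to both. The 12 did not move alike. Thy1 fell most (log2 fold change -1.14), while Cd3e (-0.04), Cd5 (0.01), Cd6 (-0.0005) and Cd28 (-0.32) did not pass. The 8 Treg markers had a median log2 fold change of -0.20, against -0.59 for Foxp3 itself. Foxp3, Izumo1r and Tnfrsf18 fell, Il2ra, the interleukin 2 receptor chain, rose (0.38, edgeR adjusted p = 0.00791), and Gpr83 (0.23), Ikzf2 (-0.08), Ctla4 (-0.18) and Lrrc32 (-0.22) did not pass. The median change over all tested genes was 0.32 on the log2 scale with the 12 pan T cell transcripts as the base and 0.59 with Foxp3 as the base, and every gene shifts by about that amount. Of all tested genes 46.1% were called higher and 5.37% lower when scaled to pan T cell transcripts, and 74.2% higher and 2.96% lower when scaled to Foxp3, so counts of higher genes under these scalings are read against those shares. Il1rl1 and Areg stayed lower under the 3 scalings, each with a call. Prdm1 and Klrg1 stayed higher with a call. Scaling to pan T cell transcripts or Foxp3 raises every value, so it was no check on genes already higher. Per 100 counts of Foxp3, Il1rl1 reached 4.03 and 4.61 in cKO and 13.4 and 13.8 in WT. Prdm1 reached 27.0 and 24.8 in cKO and 8.23 and 10.9 in WT.

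**Figure D3:**
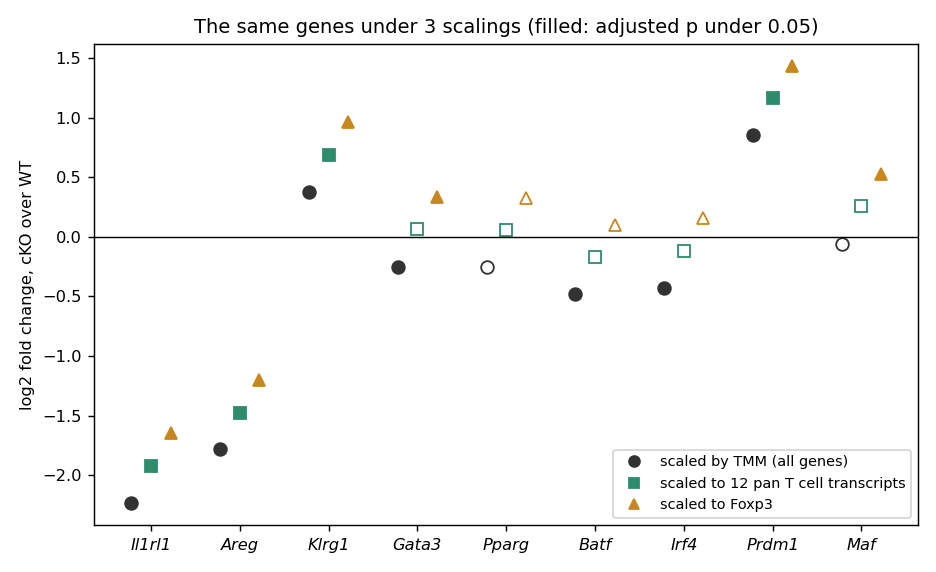
Log2 fold change of the 9 genes in cKO over WT (vertical axis) when libraries are scaled by TMM over all genes (black circles), to the summed counts of 12 pan T cell transcripts (green squares) or to Foxp3 (orange triangles), with filled symbols for adjusted p under 0.05. Il1rl1 and Areg remain below 0 and Klrg1 and Prdm1 above 0 throughout, whereas Gata3, Pparg, Batf, Irf4 and Maf lie above 0 when scaled to Foxp3. The median over all tested genes is 0.59 under that scaling, and the pan T cell and Foxp3 scalings raise every value by construction.

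Levels were also set per kilobase of annotated exon so that the genes can be ordered, leaving out Maf, whose annotated length differs between RefSeq and GENCODE. In WT the means in CPM per kilobase were 37.6 ± 2.02 for Gata3, 36.9 ± 2.80 for Batf, 29.2 ± 0.824 for Irf4, 23.0 ± 1.58 for Klrg1 and 21.9 ± 2.92 for Areg (SD, n = 2 each). Il1rl1 followed at 5.19 ± 0.266, Prdm1 at 4.50 ± 0.573 and Pparg at 1.19 ± 0.241 CPM per kilobase. Gata3 and Batf, and likewise Klrg1 and Areg, did not differ beyond their spread. In cKO the order was Gata3 at 31.5 ± 0.592, Klrg1 at 29.8 ± 0.436, Batf at 26.4 ± 2.92, Irf4 at 21.6 ± 1.30, Prdm1 at 8.12 ± 0.165 and Areg at 6.32 ± 2.25, with Il1rl1 at 1.10 ± 0.151 and Pparg at 0.993 ± 0.128 CPM per kilobase. Areg thus stood beside Klrg1 in WT and beside Prdm1 in cKO, and Il1rl1 in cKO was at the level of Pparg within the spread.

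Other genes of these pathways were taken from 11 lists of 119 distinct genes, of which 103 were tested. Of these 17 were higher and 35 lower in cKO, with a median log2 fold change of -0.13. Among all tested genes 16.5% were higher and 15.1% lower. The counts of each list below, when scaled by all genes, are read against these shares. In the signalling chain of the interleukin 33 receptor 3 of 12 tested genes fell and 0 rose. Scaled to Foxp3, 9 of the 12 were higher, near the 74.2% of all tested genes. Irak2, a kinase-like adaptor, had 25.5 and 26.6 CPM in cKO and 49.6 and 49.4 CPM in WT (log2 fold change -0.92, edgeR adjusted p = 0.00205). Sigirr, an inhibitory receptor of the family, had a log2 fold change of -0.62 (edgeR adjusted p = 0.00599), which was -0.03 (adjusted p = 0.783) when scaled to Foxp3. The ubiquitin ligase gene Traf6 had one of -0.23 (edgeR adjusted p = 0.0287), which turned to 0.09 when scaled to pan T cell transcripts, and its call ended without cKO 1, cKO 2 or WT 1. The co-receptor gene Il1rap had 28.7 and 30.5 CPM in cKO and 32.8 and 28.7 CPM in WT (log2 fold change -0.06), and Myd88 65.2 and 63.9 CPM in cKO and 67.6 and 70.0 CPM in WT (-0.09). Neither passed, in contrast to the log2 fold change of -2.23 of the receptor chain Il1rl1 itself.

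Among 12 other genes of tissue Treg cells 8 fell and 1 rose, and pan T cell transcripts, 8 of 12 of which fell, were lower in the same libraries. With scaling to pan T cell transcripts 5 of the 12 tissue genes fell and 2 rose, and with scaling to Foxp3 5 fell and 5 rose. Among all tested genes 5.37% were lower and 46.1% higher under the first of these scalings, and 2.96% lower and 74.2% higher under the second. The list median of -0.49 became 0.10 when scaled to Foxp3, where the median of all tested genes was 0.59. The nuclear receptor gene Rora had a log2 fold change of -0.95, the costimulatory receptor gene Tnfrsf9 of -0.91, the chemokine receptor gene Ccr8 of -1.34 and the transcription factor gene Nfil3 of -1.13 (edgeR adjusted p between 0.00489 and 0.00561). Il10, an anti-inflammatory cytokine gene, had 9.08 and 14.5 CPM in cKO and 35.6 and 31.9 CPM in WT. Cxcr6, a chemokine receptor gene, was the 1 that rose (log2 fold change 0.83, edgeR adjusted p = 0.00568). Il10 and Cxcr6 were named after their values were seen.

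Among 7 tested genes of type 2 immunity 3 fell and 0 rose. Scaled to Foxp3, 2 were higher and 1 lower, beside 74.2% higher and 2.96% lower among all tested genes. Ecm1 had a log2 fold change of -0.74, Nfil3 of -1.13 and Ccr4 of -0.42 (edgeR adjusted p between 0.00294 and 0.00693), and scaled to Foxp3 that of Ecm1 was -0.15 (adjusted p = 0.176) and that of Ccr4 turned to 0.17. The interleukin 4 receptor gene Il4ra (0.09) and the signal transducer gene Stat6 (-0.08) did not pass. The cytokine genes Il5 and Il13 stayed under the filter. In the GATA family, Gata2, a factor of basophils and mast cells, had 3.95 and 4.05 CPM in cKO and 1.01 and 1.12 CPM in WT (log2 fold change 1.91), while Gata1 (-0.80) and the GATA cofactor gene Zfpm1 (-0.65) fell (edgeR adjusted p between 0.00386 and 0.00725). Scaled to Foxp3, Gata1 was -0.20 (adjusted p = 0.243) and Zfpm1 -0.06 (adjusted p = 0.587). Basophil and mast cell markers, among them Gata2, were higher in the same libraries.

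In the epidermal growth factor family, to which amphiregulin belongs, 1 of 8 tested genes, the receptor gene Egfr, rose and 0 fell. Among all tested genes 16.5% were higher and 15.1% lower. Egfr had 0.619 and 0.724 CPM in cKO and 0.259 and 0.230 CPM in WT (log2 fold change 1.44, edgeR adjusted p = 0.0257), a call that ended without each of the 4 libraries (edgeR adjusted p from 0.107 to 0.196). The ligand gene Btc, which lies 209 kb from Areg, had a log2 fold change of 1.30 (edgeR adjusted p = 0.0511). The sheddase gene Adam17, whose product releases amphiregulin from the membrane, had 96.9 and 88.9 CPM in cKO and 92.9 and 101 CPM in WT and did not pass. Among partners and targets of PPAR receptors 3 of 11 rose and 2 fell. The fatty acid binding protein genes Fabp5 and Fabp4 had log2 fold changes of 0.43 and 1.16 and the lipid scavenger receptor gene Cd36 of 0.59, and each of these 3 calls ended without at least 2 of the 4 libraries. The PPAR partner gene Rxra had a log2 fold change of -0.33 (edgeR adjusted p = 0.00949), which was 0.26 when scaled to Foxp3.

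Genes that work with BATF and IRF4 went both ways. Among 10 AP-1 and IRF partners 4 rose and 4 fell, and 1 or 2 rose and 3 or 4 fell when 1 library was left out. The AP-1 genes Fosl2, Junb and Jund had log2 fold changes of -1.44, -1.03 and -0.75 (edgeR adjusted p between 0.00492 and 0.00543). Scaled to Foxp3, Jund was -0.16 (adjusted p = 0.126). Under that scaling 6 of the 10 were higher and 2 lower, beside 74.2% higher and 2.96% lower among all tested genes. Junb had 1464 and 1897 CPM in cKO and 3642 and 3243 CPM in WT, with no overlap. Irf8, a factor of myeloid, dendritic and B cells as well as T cells, had a log2 fold change of 0.54 (edgeR adjusted p = 0.00748). Dendritic cell markers, 4 of 8 of which rose and 0 fell, summed to 210 to 219 CPM in cKO and 152 to 154 CPM in WT. B cell markers, 2 of 9 of which rose and 0 fell, summed to 157 to 277 CPM in cKO and 118 to 144 CPM in WT. The part of these cells in the value of Irf8 was not tested. Fos, with a log2 fold change of 0.05, did not pass.

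In the IRF family 2 of 8 tested genes rose and 2 fell, beside 16.5% higher and 15.1% lower among all tested genes. Irf1, an interferon-induced factor, had a log2 fold change of -0.30 (edgeR adjusted p = 0.0126) and Irf2 of 0.23 (edgeR adjusted p = 0.0172), and the call of Irf2 ended without each of the 4 libraries. That of Irf1 ended without cKO 1 (edgeR adjusted p = 0.0718) or WT 2 (edgeR adjusted p = 0.0567), and its sign turned when scaled to pan T cell transcripts (0.01) or Foxp3 (0.28). In the MAF family and its BACH partners, Maff (-1.23, edgeR adjusted p = 0.00542) and Mafg (-0.30, edgeR adjusted p = 0.0155) fell and 0 of 7 rose. Scaled to Foxp3, 4 were higher and 1 lower, beside 74.2% higher and 2.96% lower among all tested genes. Mafg turned to 0.29 under that scaling, and its call ended without cKO 1 (edgeR adjusted p = 0.0909) or WT 1 (edgeR adjusted p = 0.0872) and with the replicate block (edgeR adjusted p = 0.0691). Maff, a small MAF factor gene, had 29.5 and 41.7 CPM in cKO and 86.8 and 80.6 CPM in WT, whereas Maf itself did not pass.

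Among 16 regulators of effector Treg differentiation 2 rose and 6 fell, beside 16.5% higher and 15.1% lower among all tested genes. Scaled to pan T cell transcripts 9 were higher and 2 lower, and scaled to Foxp3 12 were higher and 1 lower, beside 46.1% and 74.2% higher among all tested genes. The NF-kB subunit gene Rel had 184 and 216 CPM in cKO and 433 and 357 CPM in WT (log2 fold change -0.98, edgeR adjusted p = 0.00512). Tcf7, a factor of naive and central memory T cells, had a log2 fold change of -0.58 and Bcl6, a factor antagonistic to BLIMP1, of -0.52, and both changed sign when scaled to Foxp3 (0.01 and 0.07). Id2 rose by 0.46 on the log2 scale (edgeR adjusted p = 0.00775). Bach2 and Foxo1, which restrain effector differentiation, had log2 fold changes of 0.04 and 0.02 and did not pass.

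Among 18 surface and secreted molecules of effector Treg cells 5 rose and 8 fell. Scaled to Foxp3, 9 were higher and 5 lower, beside 74.2% higher and 2.96% lower among all tested genes. Ccr2, a receptor of inflammatory chemokines, had 104 and 87.8 CPM in cKO and 36.3 and 46.1 CPM in WT (log2 fold change 1.22, edgeR adjusted p = 0.00468). Ebi3, a subunit of interleukin 35, had a log2 fold change of -1.74 and Entpd1 (CD39) of -0.76, which was -0.18 (adjusted p = 0.238) when scaled to Foxp3. Havcr2, Fgl2 and Gzmb, named after their values were seen, rose with log2 fold changes of 1.11, 1.16 and 1.41. Ccr2 and Fgl2 are also transcribed by monocytes and Gzmb by NK cells. The monocyte genes Ly6c2 and Lyz2, with log2 fold changes of 1.56 and 1.04, and 11 of 12 NK and CD8 T cell markers were higher in the same libraries, and their part in these values was not tested.

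**Figure D4:**
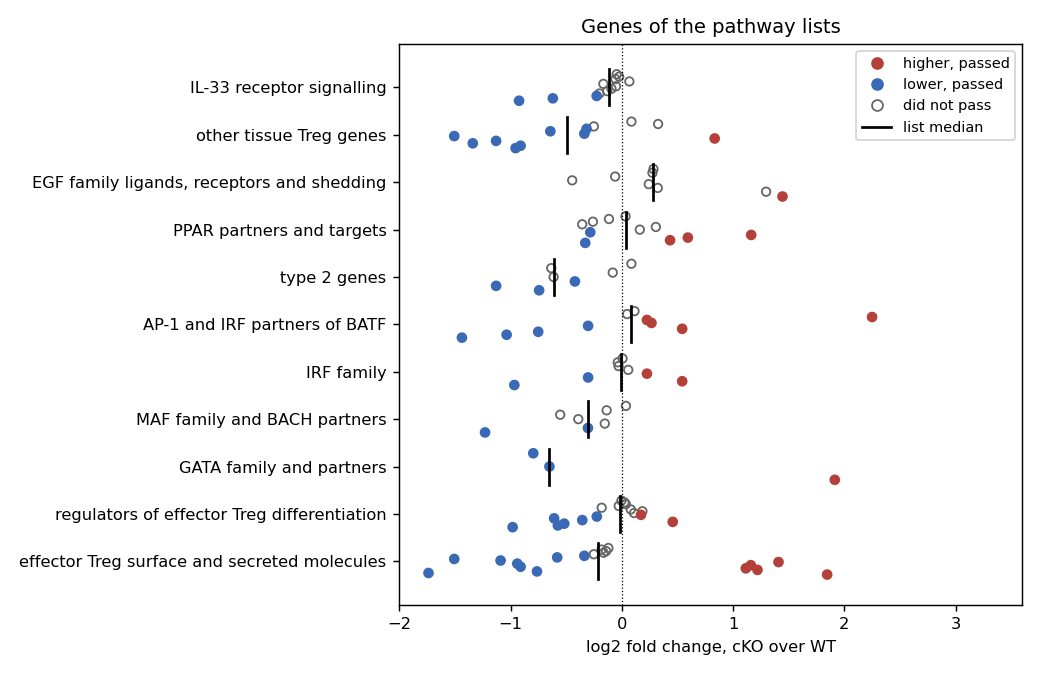
Log2 fold change in cKO over WT (horizontal axis) of each tested gene in the 11 pathway lists (rows), with filled red circles for genes that passed and were higher, filled blue circles for genes that passed and were lower, open circles for genes that did not pass and a black line at the list median. The other tissue Treg genes have 8 blue circles and a median of -0.49, whereas the effector molecules have circles on both sides, among them Ebi3 at -1.74 and Gzmb at 1.41.

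Il1rl1 lies in a cluster of interleukin 1 receptor family genes on chromosome 1. None of its 4 tested neighbours was called lower, beside 15.1% of all tested genes, and 4 genes are too few to set against that share. Il18r1, a chain of the interleukin 18 receptor, is annotated 0.134 kb from Il1rl1 and had 96.3 and 88.1 CPM in cKO and 86.2 and 90.7 CPM in WT (log2 fold change 0.06, SE 0.06, edgeR adjusted p = 0.557). Il18rap, the other chain, at a gap of 49.9 kb, had 59.9 and 51.0 CPM in cKO and 27.8 and 31.6 CPM in WT. It rose, with a log2 fold change of 0.90 (SE 0.10, edgeR adjusted p = 0.00489) and between 0.77 and 1.01 without any 1 library. NK and CD8 T cells also transcribe this receptor, and their markers were higher in the same libraries. On the other side Il1rl2 (-0.32, SE 0.19) and Il1r1 (-0.42, SE 0.20) had negative values and did not pass.

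**Figure D5:**
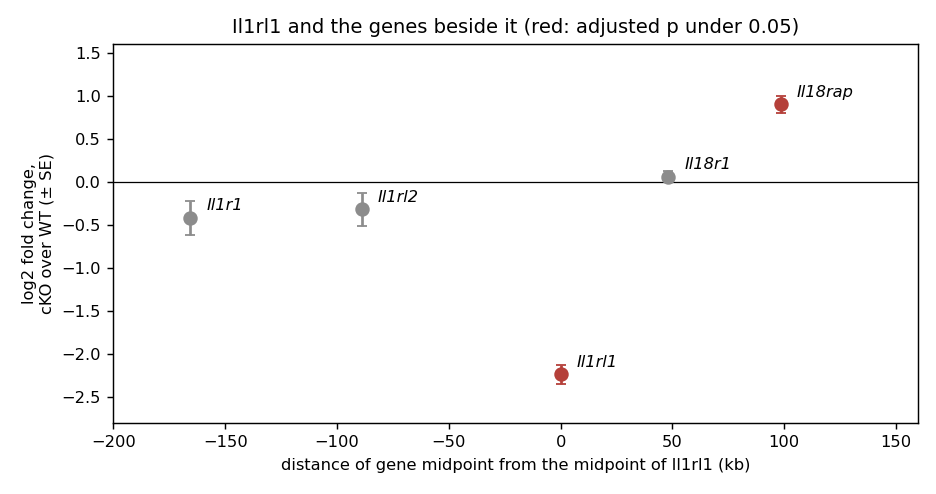
Log2 fold change in cKO over WT with its SE (vertical axis) of Il1rl1 and the 4 tested genes within 250 kb, placed by the distance of their midpoints from that of Il1rl1 in kb (horizontal axis), with red for adjusted p under 0.05. Il1rl1 lies at -2.23, Il18rap at 0.90 and the other 3 genes, in grey, between -0.42 and 0.06.

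The genes whose profile over the 4 libraries was most like that of each of the 9 genes were sought among 11079 named protein-coding genes by the Euclidean distance of centred log2 CPM. The profiles share 4 libraries and 1 group difference, and their likeness is a description. Nearest to Il1rl1 were Synpo, Igsf23 and Cpm, at distances of 0.05, 0.13 and 0.14 and with log2 fold changes of -2.19, -2.20 and -2.10. Nearest to Areg were Atcay, B3galt5 and Dusp14, at distances of 0.07, 0.12 and 0.13. Nearest to Prdm1 were Tlr12, Btk and Pclaf, at 0.02, 0.03 and 0.03, and nearest to Klrg1 were Uchl5, Nhp2 and Uqcc2, each at 0.01. Nearest to Irf4 were Prr7, Gnb1l and Jak3, the last encoding the kinase of the common gamma chain, with a log2 fold change of -0.46. Nearest to Gata3 were Dhx34, Gemin8 and Arhgap4, nearest to Batf were Lcn4, Spr and Pbx3, nearest to Pparg were Lgmn, Gprasp2 and Apoe, and nearest to Maf were Adam17, Nub1 and Ppp1r18.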

How the data were processed

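RNA-seq of splenic Treg cells gave 2 cKO and 2 WT libraries, grouped by the genotype field. The authors deposited 1 table of raw counts, whole-number read counts per gene for 20837 genes, with gene numbers. Reads were mapped to mm10, per the submitters' processing notes. Aligner, counting tool, annotation release and strandedness were not given in the sources used here. Genes were kept by edgeR filterByExpr (minimum count 10, minimum total 15), scaled by TMM and compared, cKO over WT, by the quasi-likelihood F-test of edgeR 4.0.16 in R 4.3.3, 2-sided, with Benjamini-Hochberg adjustment over all 13861 tested genes and a threshold of 0.05. SE was obtained as the size of the log2 fold change over the root of the F statistic, and 95% intervals use the test's degrees of freedom.

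The 9 genes, the 11 pathway lists and the 12 marker lists were chosen with earlier results of these data known, so their counts give no independent support. Named genes are all 9, up to 4 per pathway list with the smallest p, and the 3 nearest profiles per gene (mean of at least 1 CPM, prior count 2); other genes named were chosen after their values were seen, and some genes of the lists are counted but not reported here by name. The interval, the neighbours within 250 kb and the motif letters were chosen after seeing the data. Coordinates and windows come from RefSeq GRCm38.p6, to which 20303 genes matched by gene number, exon lengths and strands from GENCODE M21. Replicates of a group differed beyond counting noise (chi-square per degree of freedom 9.48 in cKO and 10.2 in WT). Alternatives were RLE, upper-quartile, pan T cell and Foxp3 scaling, DESeq2 1.42.0, limma-voom (limma 3.58.1), no filter, a filter of 5 CPM in 2 libraries, a replicate block, a crossed block and leaving out each library.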

Additional observations from a re-analysis of the deposited data

How the results depend on the processing

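The number of genes called over the whole table (4380) rests on few libraries and on the scaling. It was 2876 with DESeq2, 2292 with the replicate number as a block, 7131 scaled to pan T cell transcripts and 10695 scaled to Foxp3, and 1869 to 2747 when 1 library was left out. Of the 9 genes, 7 were called, 4 scaled to pan T cell transcripts and 5 to 6 without 1 library. Whether the shared replicate numbers pair the libraries is not stated. The deviations of same-numbered libraries had a correlation of -0.32. That value cannot decide it, since other differences between the libraries of a group may outweigh a pairing. The block left 6 of the 9 called, Gata3 losing its call (-0.25, edgeR adjusted p = 0.0629), and a crossed pairing, added after seeing the data, called 6713 genes and 7 of the 9. RLE, upper-quartile, DESeq2, limma-voom and both filters called the same number, 7 of the 9, except that Pparg fell under the filter of 5 CPM and was not tested there.

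Scaled to pan T cell transcripts, the sign turned for Gata3 (0.063), Pparg (0.0612), Maf (0.26), Bach1 (0.17), Irf1 (0.0125), Mafg (0.0125), Tollip (0.12) and Traf6 (0.0947). Scaled to Foxp3 it turned for Gata3 (0.33), Pparg (0.33), Batf (0.10), Irf4 (0.16), Maf (0.53), Bach1 (0.44), Bcl6 (0.0734), Ccr4 (0.17), Irf1 (0.28), Mafg (0.29), Rxra (0.26), Tcf7 (0.0148), Tollip (0.39) and Traf6 (0.37). By construction these 2 scalings raise every value by about the shift of the median. Without 1 library Maf ranged from -0.13 to 0.002, turning positive without WT 2, and the cause was not tested. With 2 libraries per group, and Pparg at about 100 counts per library, small differences are limited by the spread between libraries.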

Other observations

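Beyond the Il1rl1 cluster, neighbours within 250 kb of the other 8 genes were read as a description. Over all 9 genes 52 neighbours were in the table and 31 were tested, of which 6 were higher and 2 lower in cKO, beside 16.5% and 15.1% among all tested genes. Dusp22, a phosphatase gene that restrains T cell receptor signalling, lies 38 kb from Irf4 and had 9.32 and 7.99 CPM in cKO and 3.72 and 4.46 CPM in WT, a log2 fold change of 1.08 (SE 0.16, edgeR adjusted p = 0.00660), opposite to that of Irf4 when scaled by all genes. It ranged from 0.95 to 1.22 without 1 library. Exoc2, 22.5 kb from Irf4 on the other side, had a log2 fold change of -0.01 and did not pass.

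Near Gata3, the non-coding gene Gata3un had 14 and 13 counts in cKO and 3 and 1 counts in WT (log2 fold change 2.72, edgeR adjusted p = 0.0168), while Gata3os did not pass (1.15). Taf3, a gene of the basal transcription factor TFIID 26.6 kb from Gata3, had 32.0 and 32.5 CPM in cKO and 44.6 and 40.1 CPM in WT (-0.39, edgeR adjusted p = 0.0112).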
